A study of Bos indicus and Bos taurus with 17 samples.

Results

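The RAB GTPases are small proteins that direct vesicles between the membranes of a cell, and their genes were taken from the expression values of cells captured from cow's milk. A gene was a member when its name, or a part of a name that the annotation joins with others, was RAB followed by its number and letters. Of 22168 distinct gene names, 52 were members, held by 55 entries. For the 3 members with more than 1 entry (RAB1A, RAB3D and RAB9A), the entry with the highest mean over the groups was used. RNA was sequenced from cells that bound magnetic beads coated with an antibody against keratin 18, which selects mammary epithelial cells, in Kashmiri cattle (a local breed) and Jersey cattle at D15, D90 and D250 of lactation, so that no group was treated and the 6 groups differed in breed and day. The labels give 3 samples per group and 2 for Jersey at D90, from cows in lactation 2 or 3. All samples of a day came from the same month (March, July or December), so the season and the day of lactation cannot be told apart. Expression is given as the authors' FPKM, the fragments of a transcript divided by its length and by the size of the library, 1 value for each group and none per cow, so that no error or test could be given, 1 cow may dominate a group value, and every fold below describes these 6 values.

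A RAB protein works as a switch: bound to GTP it sits on a membrane through its lipid tail and recruits tethers, motors and fusion factors, and bound to GDP it is taken back into the cytosol. Exchange factors turn it on, GTPase-activating proteins turn it off, and each member marks its own compartment. In the lactating gland these proteins serve the route that carries casein and fat to the apical surface, whereas in neutrophils and macrophages, which are also found in milk, they serve granules and phagosomes. The members were placed in lists by their known site of action: the endoplasmic reticulum (ER) and Golgi (9 found of 12 listed), post-Golgi exocytosis (10 of 10), recycling (8 of 9), early endosomes (6 of 6), late endosomes and lysosomes (7 of 7), granules and phagosomes of white cells (4 of 6) and other functions (8 members). RAB6A, RAB41, RAB43, RAB4B, RAB27A and RAB44 were not found among the names, so that RAB27A, the best known granule RAB of white cells, was not analysed here.

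The labelled cell type was compared with marker genes. Epithelial markers (13 found of 14 listed, none listed at 0) summed to 5874 FPKM on D15, 719.7 on D90 and 2619.8 on D250 in Kashmiri, and to 2712, 100.4 and 1398 in Jersey. Neutrophil markers (9 of 12, none at 0) summed to 213, 566 and 660.1 FPKM in Kashmiri and to 5209, 5949 and 15135 in Jersey, and macrophage markers (10 of 10, none at 0) to 111, 511 and 523 in Kashmiri and to 1044, 2202 and 1868 in Jersey. T and NK cell markers (8 of 8) were highest in Kashmiri at D90, at 1508 FPKM, against 91.8 to 366 in the other groups. White cell transcripts were therefore present in every group beside the epithelial ones. By qPCR at D90, the paper found LSP1, HBA and CD18 lower in the captured cells than in milk cells before capture. KRT18 and CSN2, its epithelial markers, were higher in the captured cells. It proposes that contamination by other cell types was minimal. Here the white cell gene LSP1 stood at 254 FPKM in Kashmiri and 170 in Jersey at D90. These are levels in captured cells alone, without values from before capture, so they cannot be set against the qPCR comparison. In such bulk values, fewer cells of a type and less RNA per cell cannot be told apart. The 4 red cell markers found summed to under 1 FPKM in each group.

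Of the 52 members, 46 reached 1 FPKM in at least 1 group and 35 did so in all 6. RAB3B, RAB3C, RAB6B, RAB9B, RAB36 and RAB39A stayed under 1 FPKM in all groups. A total of 11 members passed 100 FPKM in some group. RAB7A, which drives the fusion of late endosomes with lysosomes, was the highest member in 5 groups, and RAB25, an epithelial RAB of apical recycling, was the highest in Kashmiri at D15. RAB7A stood at 83.9 FPKM on D15, 180.15 on D90 and 156 on D250 in Kashmiri, and at 223, 361 and 462 in Jersey. Each Jersey value of RAB7A was thus above all 3 Kashmiri values as deposited. The summed FPKM of all members was 1367, 1005 and 1342 in Kashmiri and 1459, 1727 and 2971 in Jersey on the same days. As a share of the summed FPKM of all names, it was 0.130%, 0.115% and 0.248% in Kashmiri and 0.181%, 0.249% and 0.273% in Jersey. The size of the breed difference at D250 and the order of D15 and D250 in Kashmiri thus depend on the scaling. FPKM is divided by transcript length, so that levels may be set side by side between members.

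**Figure D1:**
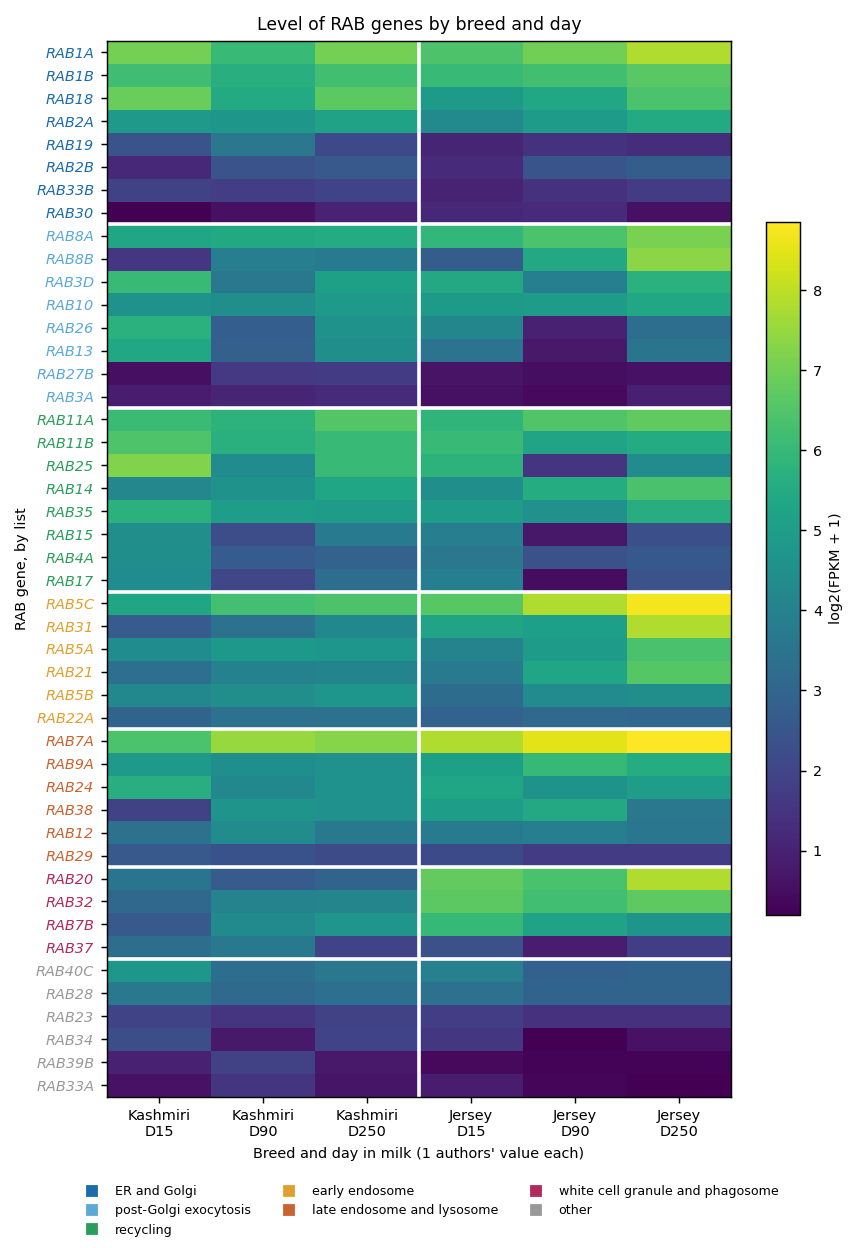
Level of the 46 RAB genes that reached 1 FPKM, as log2(FPKM + 1), for each breed and day (columns) and with genes grouped and coloured by list (rows). RAB20 and RAB32 are dark in the Kashmiri columns and bright in the Jersey columns, and RAB25, RAB26, RAB13, RAB17 and RAB15 are darkest at D90 in Jersey.

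The secretory members RAB1A, RAB1B and RAB18 of the ER and Golgi were among the more abundant ones, and RAB1A and RAB1B were within 2-fold between the breeds on each day. RAB1A, which carries cargo from the ER to the Golgi, stood at 130.2 FPKM on D15, 66.5 on D90 and 132 on D250 in Kashmiri, and at 85.3, 128 and 227 in Jersey. The closely related RAB1B stood at 72.0, 48.8 and 74.8 FPKM in Kashmiri and at 66.1, 73.3 and 97.9 in Jersey. The lowest Kashmiri value of both genes was at D90, whereas in Jersey both were higher on each later day, except that RAB1B at D250 over D90 turned to lower when rescaled to the sum without milk proteins. RAB18, a RAB of the ER and of lipid droplets, stood at 117 FPKM on D15, 43.3 on D90 and 101 on D250 in Kashmiri, and at 28.9, 40.2 and 82.8 in Jersey. At D15 it was thus 4.05-fold lower in Jersey (log2 ratio with a pseudocount of 1 FPKM, -1.98), while on the later days the breeds were within 1.22-fold of each other as deposited. Rescaled to the upper quartile or to the sum without milk proteins, the log2 ratio of RAB18 was -0.85 or -1.32 at D250, against -2.09 or -1.61 at D15, so that the nearness at D250 depends on the scaling. At D90 the Kashmiri value of RAB18 was 2.70-fold below that at D15, and in Jersey the D250 value was 2.87-fold above that at D15.

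Among the remaining members of the ER and Golgi list, RAB2A, which acts between the Golgi and the ER, ranged from 26.4 to 34.9 FPKM in Kashmiri and was 18.6, 29.9 and 44.0 FPKM on the 3 days in Jersey. Its paralogue RAB2B was low on D15 in both breeds, at 1.22 FPKM in Kashmiri and 1.35 in Jersey, and stood at 5.04 and 5.65 FPKM on D250, 4.13-fold and 4.19-fold higher. As deposited, RAB2B was nearly equal between the breeds on each day (1.03-fold to 1.12-fold). Its direction at D90 and at D250 turned under a rescaling, so that this nearness depends on the scaling. RAB19, a Golgi RAB, stood at 4.29, 11.4 and 3.34 FPKM in Kashmiri and at 1.13, 1.72 and 1.53 in Jersey, 6.59-fold lower in Jersey at D90. RAB19 had the largest breed ratio of the ER and Golgi members on the scale with the pseudocount (log2 ratio -2.18 at D90). RAB33B, which acts in the Golgi and in autophagy, stayed between 1.03 and 2.85 FPKM in all groups, and RAB30 between 0.160 and 1.32 FPKM.

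RAB20 had the largest breed ratio of the family. This gene, a RAB of macrophage phagosomes, stood at 10.8 FPKM on D15, 5.33 on D90 and 6.96 on D250 in Kashmiri, against 108, 81.5 and 226 in Jersey. RAB32, which acts on lysosome-related organelles and bacteria-containing vacuoles, stood at 7.39, 15.9 and 16.7 FPKM in Kashmiri and at 100.4, 74.8 and 103 in Jersey. For both genes the lowest Jersey value was above the highest Kashmiri value. RAB20 was 10.02-fold higher in Jersey at D15, 15.3-fold at D90 and 32.4-fold at D250, and RAB32 was 13.6-fold, 4.69-fold and 6.18-fold higher. RAB7B, known from the endosomes of monocytes and dendritic cells, differed between the breeds at D15 in particular: it stood at 5.14, 19.3 and 24.8 FPKM in Kashmiri and at 62.3, 35.1 and 24.7 in Jersey. It was higher on each later day in Kashmiri and lower on each later day in Jersey, so that the 12.1-fold breed ratio of D15 was 1.82-fold at D90 and 1.00-fold at D250 as deposited (log2 ratio -0.01 at D250, but -0.56 with the upper quartile and -1.01 with the sum without milk proteins). RAB37, known from the secretory granules of mast cells, ran the other way from RAB20 and RAB32. Its values were 9.01, 11.98 and 2.95 FPKM in Kashmiri and 4.04, 0.842 and 2.51 in Jersey, 14.2-fold lower in Jersey at D90.

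Set against each other, the white cell list and the ER and Golgi list differed most at D15. The median log2 ratio of Jersey over Kashmiri was 3.29 for the 4 white cell members and -0.58 for the 8 ER and Golgi members at D15, 1.497 and 0.10 at D90, and 1.28 and -0.06 at D250, where the median over all gene names was -0.12, -0.03 and -0.09. The difference of the 2 medians, which does not depend on how a library is scaled except through the pseudocount, was 3.87, 1.39 and 1.34. RAB20, RAB32 and RAB7B were above 0 at D15 and at D90, but at D250 the white cell median lay between RAB32 (2.56) and RAB7B (-0.01), with RAB20 as the only other member above 0, and RAB37 was lower in Jersey on all 3 days. The lists were chosen with earlier results of these data known, and a median of 4 members depends on that choice. RAB38, like RAB32 a RAB of lysosome-related organelles, was listed with the late endosomes, at 3.11 on D15 and -0.91 on D250. Over the days the same difference of medians was 0.80 in Kashmiri and -1.07 in Jersey for D90 over D15, and 0.20 and -1.17 for D250 over D15. Taken within each group as a pair chosen after its values were seen, RAB20 over RAB18 was 0.0922, 0.123 and 0.0687 in Kashmiri and 3.74, 2.03 and 2.72 in Jersey. Like RAB20 and RAB32, the neutrophil markers were higher in Jersey: all 9 were past 4-fold higher in Jersey on D15, and 8 of 9 on each of the later days. Macrophage markers were past 4-fold higher in Jersey for 8 of 10 genes on D15, 4 on D90 and 1 on D250. Their median log2 breed ratio was 3.64, 1.52 and -0.29 on these days, and at D250 5 of the 10 were lower in Jersey. Other white cell markers did not all go this way. Median log2 breed ratios on the 3 days were 1.69, -0.05 and 1.68 for markers shared by white cells. They were -0.56, -3.56 and -1.72 for T and NK cell markers and 0.55, -1.57 and -1.45 for B cell markers. The part of these cells in the RAB values was not tested.

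**Figure D2:**
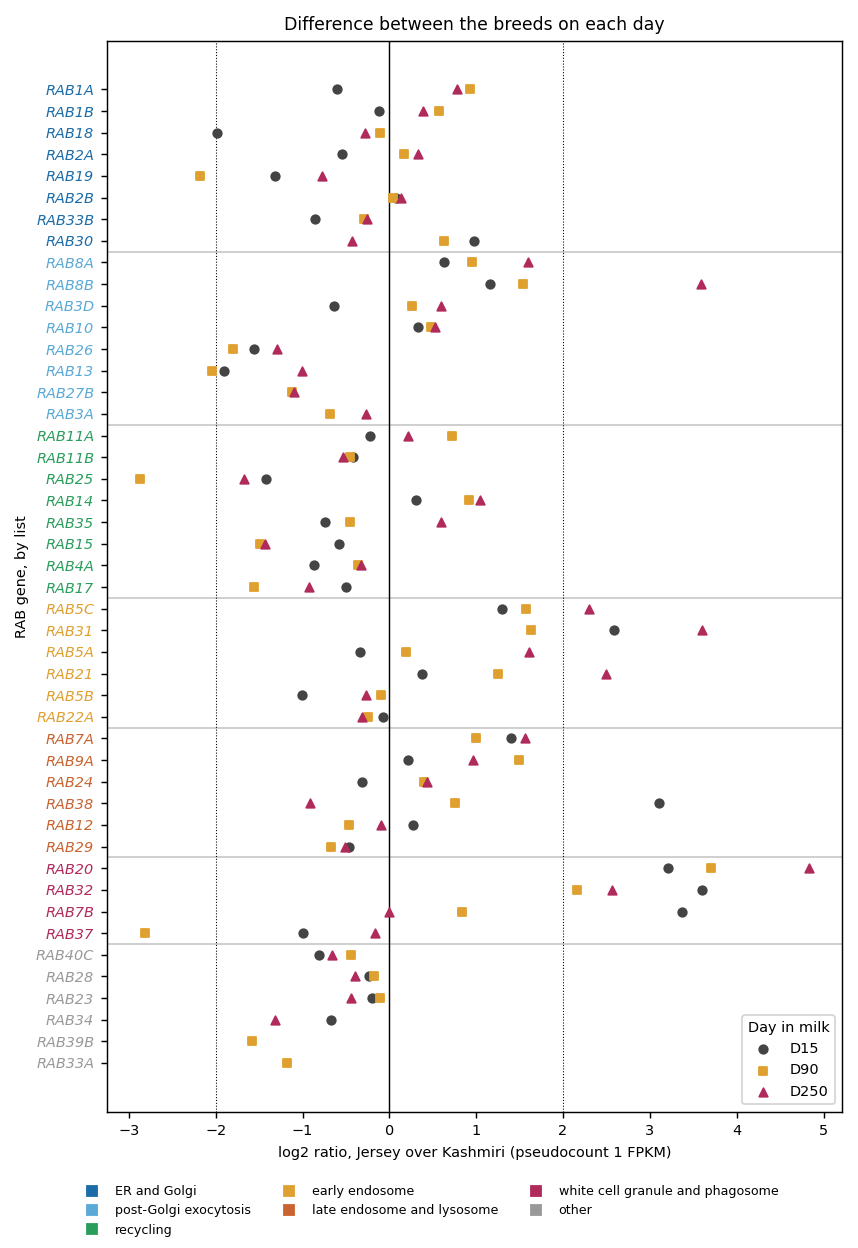
Log2 ratio of Jersey over Kashmiri (x axis, pseudocount of 1 FPKM) for each RAB gene (y axis, grouped and coloured by list) on each of the 3 days, for genes that reached 1 FPKM in either breed on that day. The line at 0 marks equal values and the dotted lines 4-fold; on the deposited scale RAB20 and RAB32 lie beyond 4-fold on all 3 days and RAB7B lies at -0.01 at D250, whereas rescaled to the sum without milk proteins RAB32 is at 1.55 and RAB7B at -1.01 on that day.

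A gene was counted as past 4-fold when its log2 ratio reached 2 or -2 and its FPKM reached 1 in either group. At D15, 5 of 42 members were past 4-fold between the breeds, all higher in Jersey, where 8.70% of all gene names were past it and 6.64% were so and higher. Besides RAB20, RAB32 and RAB7B they were RAB31 and RAB38, and rescaling to the upper quartile added RAB13 and RAB18 as lower in Jersey (5 higher and 2 lower). At D90, 6 of 45 were past it (12.1% of all names), with RAB20 and RAB32 higher (6.89%) and RAB25, RAB37, RAB19 and RAB13 lower in Jersey (5.25%), of which RAB19 and RAB13 were no longer past it when rescaled to the sum without milk proteins (2 higher and 2 lower). At D250, 6 of 44 were past it (12.8%), all higher in Jersey (11.3%), and these were RAB20, RAB31, RAB8B, RAB32, RAB21 and RAB5C. This split depended on the scaling: with the upper quartile 4 were higher (RAB20, RAB31, RAB8B and RAB32) and RAB25 was lower, and with the sum without milk proteins 3 were higher (RAB20, RAB31 and RAB8B) and 3 lower (RAB25, RAB26 and RAB15). The D90 and D250 shares of the members (13.3% and 13.6%) were close to those of all names. Of the 46 members that reached 1 FPKM, 12 were higher in Jersey on all days (9 also when the values were rescaled to the upper quartile or to the sum without milk proteins) and 20 were lower on all days (15 also when rescaled), against 26.4% and 33.9% of all names. Those higher by more than 2-fold on every day were RAB20, RAB31, RAB32, RAB5C and RAB8B (7.50% of all names), and those lower by more than 2-fold on every day were RAB13, RAB25 and RAB26 (3.16%).

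The second pattern of the family was a low level at D90 in members known from epithelial transport. RAB25, which recycles cargo to the apical surface of epithelial cells, stood at 148 FPKM on D15, 19.9 on D90 and 64.5 on D250 in Kashmiri, and at 54.6, 1.86 and 19.6 in Jersey. It was 7.42-fold lower at D90 than at D15 in Kashmiri and 29.3-fold lower in Jersey. RAB17, a RAB of apical recycling and transcytosis, stood at 20.3, 3.06 and 9.10 FPKM in Kashmiri and at 14.1, 0.381 and 4.32 in Jersey. RAB15, which acts on recycling endosomes, stood at 21.1, 3.73 and 12.3 FPKM in Kashmiri and at 13.8, 0.682 and 3.93 in Jersey. In each breed the D90 value was the lowest for all 3 genes, and the Jersey D90 value was the lowest of the 6 groups. The exocytic RAB26, known from the secretory granules of exocrine cells, stood at 51.8, 5.88 and 23.5 FPKM in Kashmiri and at 16.9, 0.978 and 8.98 in Jersey. RAB13, which carries proteins to tight junctions, stood at 40.6, 6.12 and 21.9 FPKM in Kashmiri and at 10.1, 0.727 and 10.4 in Jersey. RAB26 and RAB13 had the same order of days as RAB25, highest at D15 and lowest at D90, except that RAB13 was 1.03-fold higher at D250 than at D15 in Jersey as deposited, and in Kashmiri when rescaled to the sum without milk proteins.

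RAB3D, which acts in regulated exocytosis of exocrine cells, stood at 65.9, 11.7 and 33.9 FPKM in Kashmiri and at 41.9, 14.3 and 51.5 in Jersey, and its D90 value was the lowest of both breeds. The entry used for RAB3D also covers TMEM205, its neighbour in the RefSeq gene order, so that the reads of these genes cannot be told apart there. The entry named RAB3D alone held 1.91, 1.68 and 3.71 FPKM in Kashmiri and 0.00350, 1.23 and 3.34 in Jersey, and it was not lowest at D90 in Jersey. For D90 over D15, 8 of 45 members were past 4-fold in Kashmiri (7.71% of all names): RAB25, RAB26, RAB13, RAB17, RAB3D and RAB15 were lower (5.27%) and RAB38 and RAB8B were higher (2.44%). In Jersey 6 of 42 were past it (6.93%), with RAB25, RAB17, RAB26, RAB15 and RAB13 lower (3.95%) and RAB8B higher (2.99%). The 5 members lower in Jersey were thus among the 6 lower in Kashmiri. A minimum at D90 was seen in 22 of 46 members in Kashmiri (33.8% of all names) and in 19 of 46 in Jersey (29.3%), among them 6 of the 8 recycling members in each breed. It was not confined to members of epithelial transport. Of the 4 white cell members, 1 (RAB20) was lowest at D90 in Kashmiri and 3 (RAB20, RAB32 and RAB37) in Jersey.

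From D90 to D250 the same members stood higher again. In Jersey 4 of 41 members were past 4-fold, all higher (4.21% of all names, 3.77% higher): RAB25 by 10.5-fold, RAB13 by 14.3-fold, RAB26 by 9.18-fold and the endosomal RAB31 by 6.91-fold. Either rescaling added RAB38 as lower, and that to the sum without milk proteins left RAB26 short of the limit. In Kashmiri 0 of 46 passed 4-fold (2.13%). At a limit of 2-fold, 8 Kashmiri members were higher at D250 than at D90 (8.87%), of which 3 were exocytic and 3 were recycling members, and RAB19, RAB37 and RAB39B were lower (9.05%). Comparisons within a breed share a day, and therefore a low D90 value enters both of these ratios. Beside these values, all 13 epithelial markers were lower at D90 than at D15 in both breeds, 5 of them past 4-fold in Kashmiri and 9 in Jersey, and keratin 18 (KRT18), the target of the beads, stood at 51.3, 9.13 and 11.5 FPKM in Kashmiri and at 33.7, 1.59 and 4.51 in Jersey. Their part in the RAB values was not tested.

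**Figure D3:**
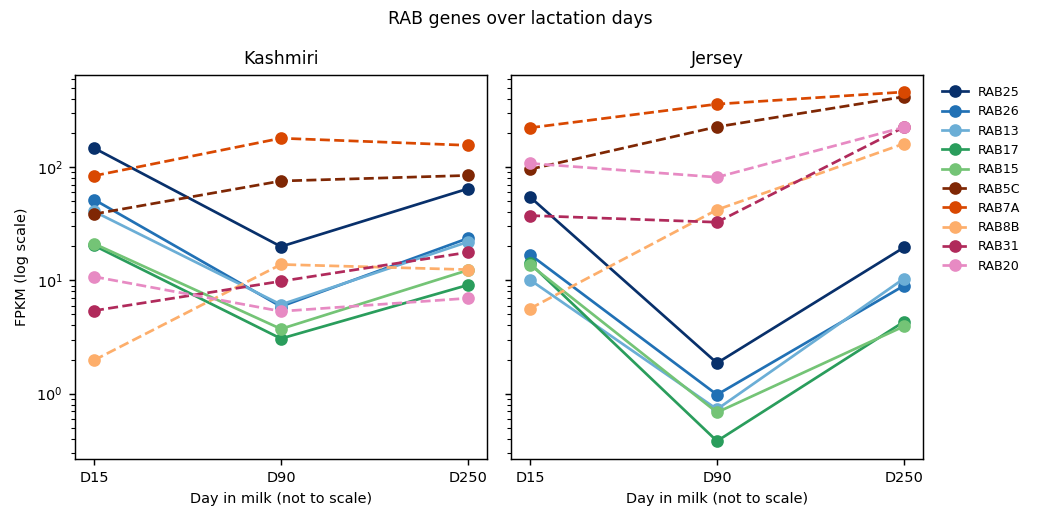
FPKM (log axis) of 10 RAB genes over the 3 days in Kashmiri (left) and Jersey (right). Solid lines are RAB25, RAB26, RAB13, RAB17 and RAB15, and dashed lines are RAB5C, RAB7A, RAB8B, RAB31 and RAB20. RAB25, RAB26, RAB13, RAB17 and RAB15 dip at D90 in both breeds, as does RAB20 among the dashed lines, and RAB8B is higher at D90 than at D15 in both.

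Of the 6 early endosome members, all were higher at D250 than at D15 in both breeds as deposited (RAB22A in Jersey not when rescaled to the sum without milk proteins), and at D250 4 were higher in Jersey and RAB5B and RAB22A lower. RAB5C, which fuses early endosomes, stood at 38.6, 75.5 and 84.6 FPKM in Kashmiri and at 95.8, 227 and 419 in Jersey. RAB31, which acts between the Golgi and endosomes, stood at 5.40, 9.83 and 17.7 FPKM in Kashmiri and at 37.4, 32.6 and 226 in Jersey. RAB21, known from the endocytosis of integrins, stood at 9.22, 15.2 and 16.0 FPKM in Kashmiri and at 12.2, 37.5 and 94.8 in Jersey. All 3 were at their highest in Jersey at D250. RAB5A stood at 20.3, 26.8 and 25.9 FPKM in Kashmiri and at 15.8, 30.6 and 81.3 in Jersey, whereas RAB5B, of the same function, ranged only from 8.43 to 25.9 FPKM over the 6 groups and was lower in Jersey on each day as deposited (higher at D90 when rescaled to the sum without milk proteins). RAB8B, which carries vesicles from the Golgi to the plasma membrane, had the widest range of these genes: it stood at 1.97, 13.8 and 12.5 FPKM in Kashmiri and at 5.64, 42.1 and 161 in Jersey, 28.6-fold higher at D250 than at D15 in Jersey and 6.32-fold in Kashmiri. Its paralogue RAB8A stood between 38.0 and 44.7 FPKM in Kashmiri and at 59.4, 84.3 and 137 FPKM in Jersey.

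For D250 over D15, 5 of 42 members were past 4-fold in Jersey, all higher: RAB8B, RAB21, RAB31, RAB5A and RAB5C, of which RAB5C fell short under either rescaling and RAB5A when rescaled to the sum without milk proteins. The share as deposited, 11.9%, was close to that of all names (12.8%, and 9.36% higher). In Kashmiri 3 of 44 were past it, all higher: RAB38, RAB8B and RAB7B (4.23%, and 1.91% higher). RAB38, a RAB of lysosome-related organelles, stood at 2.77, 24.3 and 22.7 FPKM in Kashmiri and at 31.4, 41.8 and 11.6 in Jersey. It was thus 11.4-fold higher in Jersey at D15 and 1.96-fold lower at D250. The neutrophil markers were highest in Jersey at D250, where they summed to 15135 FPKM, and the part of these cells in the endosomal values was not tested.

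At a limit of 2-fold, 19 of 45 members in Kashmiri were past it for D90 over D15 (33.6% of all names), 11 of 46 for D250 over D90 (17.9%) and 16 of 44 for D250 over D15 (25.9%). In Jersey the counts were 16 of 42 (29.9%), 14 of 41 (20.8%) and 20 of 42 (42.5%). Between the breeds they were 14 of 42 at D15 (28.9%), 17 of 45 at D90 (33.1%) and 16 of 44 at D250 (34.9%). As percentages of the members these counts ran from 23.9% to 47.6%, each above that of all names, in comparisons that share groups and carry no test. The pseudocount makes the ratios of genes near 1 FPKM smaller, and no share over names of like level was computed.

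The other members that reached 1 FPKM were not past 4-fold in any comparison on the scale with the pseudocount, and are given by their range or extremes. RAB4A, of fast recycling, was highest at D15 in both breeds, at 21.5 FPKM in Kashmiri and 11.3 in Jersey, and lay between 4.10 and 6.58 FPKM on the later days. RAB14, which acts between the Golgi and endosomes, was higher on each later day in both breeds, from 17.3 to 39.1 FPKM in Kashmiri and from 21.6 to 81.5 in Jersey. RAB35, of recycling to the plasma membrane, ranged from 22.8 to 51.3 FPKM. RAB24, known from autophagy, was lowest at D90 in both breeds, at 17.8 FPKM in Kashmiri and 23.7 in Jersey, and highest at D15, at 48.9 and 39.1 FPKM. RAB9A, which returns receptors from late endosomes to the Golgi and shares its entry with an unnamed gene, stood between 21.8 and 28.6 FPKM in Kashmiri and between 33.3 and 63.2 FPKM in Jersey. RAB10, a RAB of the route from the Golgi to the plasma membrane, ranged from 21.5 to 40.3 FPKM, RAB12, of traffic to lysosomes, from 9.85 to 19.5, RAB22A, of early endosomes, from 6.46 to 9.67 and RAB29, of lysosomes and the Golgi, from 2.21 to 5.04. These 4 genes were thus within 2.28-fold over all 6 groups. Among the members with other functions, RAB40C was highest at D15 in both breeds, at 26.2 and 14.6 FPKM. RAB34 was lowest at D90 in both, at 0.710 FPKM in Kashmiri and 0.141 in Jersey, against 3.83 and 2.04 at D15. As plain ratios its D90 values were 5.40-fold and 14.4-fold lower than those of D15. RAB28 ranged from 6.82 to 11.5 FPKM and RAB23 from 1.67 to 2.90. RAB33A and RAB39B were highest in Kashmiri at D90, at 1.88 and 2.65 FPKM. RAB12, RAB19, RAB22A and RAB37 were also highest in that group, as were the sums of T and NK cell markers and of B cell markers. RAB3A, of regulated exocytosis, ranged from 0.316 to 1.33 FPKM.

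Within sets of closely related members, the shares of the paralogues differed by group, and the leading paralogue was not the same in all groups in the RAB8 set and in the RAB11 set with RAB25. RAB25 made up 49.0% of the summed FPKM of RAB11A, RAB11B and RAB25 on D15, 15.9% on D90 and 29.3% on D250 in Kashmiri, and 30.9%, 1.45% and 11.5% in Jersey. RAB11A, the general RAB of recycling endosomes, stayed between 54.2 and 91.1 FPKM in Kashmiri and between 57.0 and 106 FPKM in Jersey. RAB11A was therefore not at its lowest at D90 in Jersey, unlike RAB25. RAB11B, whose entry also covers MARCH2, its neighbour in the RefSeq gene order, stayed between 36.6 and 86.8 FPKM over the groups. RAB8B made up 4.93%, 24.3% and 21.8% of the RAB8 set in Kashmiri and 8.67%, 33.3% and 54.1% in Jersey. RAB5C made up 50.2%, 61.2% and 62.0% of the RAB5 set in Kashmiri and 79.8%, 81.9% and 80.3% in Jersey. The RAB5 share was thus nearly constant over the days in Jersey, while the RAB8 share was higher on each later day there. RAB7B made up 5.77%, 9.66% and 13.7% of the RAB7 set in Kashmiri and 21.9%, 8.87% and 5.09% in Jersey, in opposite orders of the days. RAB1A made up between 56.3% and 69.9% of the RAB1 set, and RAB3D between 90.4% and 98.7% of the RAB3 set, with the limit named above for its entry. Of the RAB6 and RAB27 sets only RAB6B, under 1 FPKM in all groups, and RAB27B were found. RAB27B, which acts in regulated secretion and exosome release, stood at 0.444, 2.08 and 2.26 FPKM in Kashmiri and between 0.413 and 0.581 FPKM in Jersey.

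**Figure D4:**
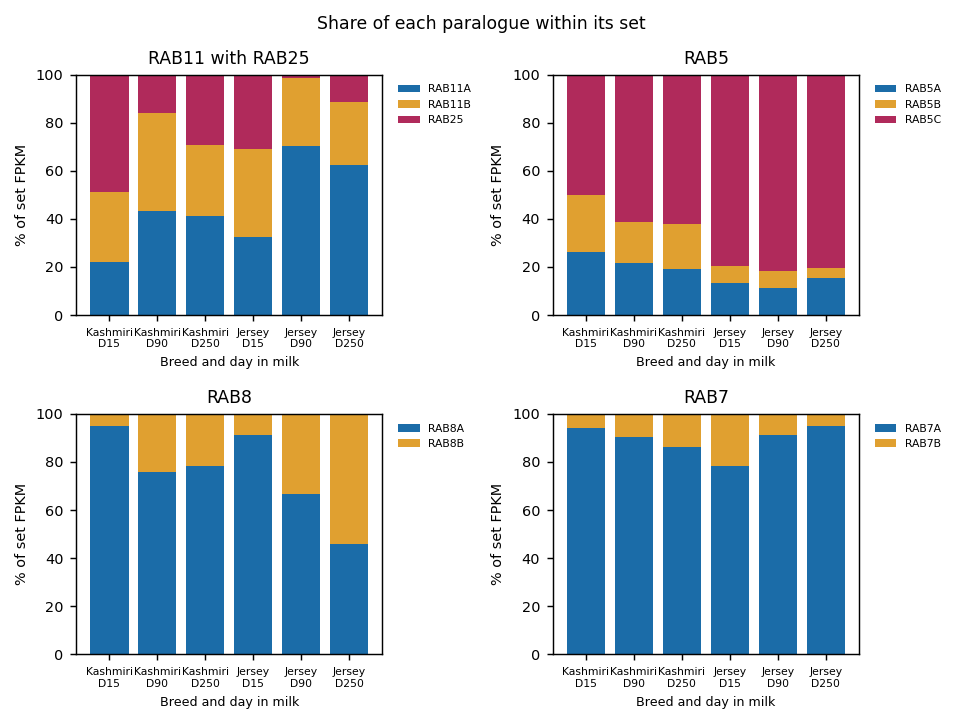
Share of each paralogue in the summed FPKM of its set (y axis, %), for the RAB11 set with RAB25, the RAB5 set, the RAB8 set and the RAB7 set, by breed and day (x axis). RAB25 holds 1.45% of its set in Jersey at D90, and RAB8B holds 54.1% of its set in Jersey at D250.

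Across all members, the make-up of the RAB transcripts followed these shifts. The ER and Golgi members made up 26.0%, 20.3% and 26.5% of the RAB sum in Kashmiri and 14.0%, 16.2% and 15.5% in Jersey. The recycling members made up 31.7%, 19.2% and 23.7% in Kashmiri and 18.3%, 11.8% and 10.5% in Jersey. Both lists thus held a smaller share in Jersey on each day. As deposited, the summed FPKM of the ER and Golgi members was lower in Jersey only at D15 (204 against 355). It was higher at D90 (281 against 204) and at D250 (462 against 355). That of the recycling members was higher in Jersey at D90 (203 against 193). The direction of the ER and Golgi sum at D250 depends on the scaling. As a share of the summed FPKM of all names, it was lower in Jersey (0.0424% against 0.0657%). The white cell members made up 2.37%, 5.23% and 3.84% in Kashmiri and 18.8%, 11.1% and 11.99% in Jersey, and the early endosome members 7.19%, 15.7% and 13.4% in Kashmiri and 12.1%, 20.6% and 28.6% in Jersey. The late endosome members made up between 13.1% and 29.3% of the sum, with the highest share of each breed at D90, and the post-Golgi members between 10.1% and 16.3%.

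**Figure D5:**
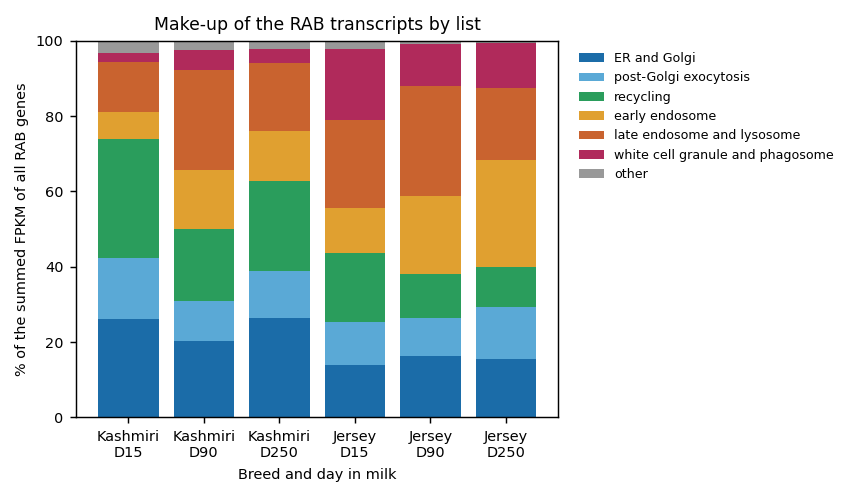
Share of each list in the summed FPKM of all 52 RAB genes (y axis, %), stacked by breed and day (x axis). The white cell list holds 2.37% to 5.23% of the sum in Kashmiri and 11.1% to 18.8% in Jersey.

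The genes that prenylate, switch on and switch off RAB proteins were taken from lists as well. CHML, which escorts RAB proteins to prenylation, stood at 0.557, 1.005 and 1.85 FPKM in Kashmiri and at 1.01, 5.24 and 29.8 in Jersey. CHML was past 4-fold higher in Jersey at D250 (log2 ratio 3.43). Among 22 exchange factors, with median log2 breed ratios of -0.06, 0.12 and 0.22 on the 3 days, RIN3 and RAB3IL1 were past 4-fold higher in Jersey at D15 (log2 ratio 2.17 and 2.65) and RABGEF1 at D250 (3.18), with RIC1 (2.01), named after its value was seen. MADD, an exchange factor of RAB3 and RAB27, was lower in Jersey on all days, by -1.80, -3.86 and -1.90 as log2 ratios, and DENND2D by -2.07 at D90. RABGEF1, the exchange factor of RAB5, stood at 20.6, 36.3 and 32.1 FPKM in Kashmiri and at 30.9, 88.5 and 299 in Jersey, in an entry joined with TMEM248.

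Among the GTPase-activating proteins, 0 of 30 were past 4-fold between the breeds at D15, 5 of 28 at D90 and 5 of 30 at D250, with median log2 breed ratios of -0.08, 0.36 and 0.08. Over all names, 8.70%, 12.1% and 12.8% were past 4-fold between the breeds on these days, against which the counts of all regulator and effector lists are to be read. TBC1D2B stood at 2.84, 7.05 and 5.90 FPKM in Kashmiri and at 8.13, 79.3 and 54.9 in Jersey. TBC1D23 stood at 3.04, 6.15 and 12.6 FPKM in Kashmiri and at 6.89, 40.2 and 124 in Jersey. Both are TBC-domain proteins, with log2 breed ratios of 1.25 and 0.96 at D15 and larger ones afterwards, and TBC1D8 and TBC1D9 had log2 breed ratios of 3.26 and 3.00 at D90 and of 2.33 and 2.13 at D250. RAB3GAP1, which acts on RAB3 and, as an exchange factor, on RAB18, was past 4-fold at D250 only (2.02). TBC1D10C, named after its value was seen, was past 4-fold lower in Jersey at D90 (-2.05). SYTL2, a synaptotagmin-like effector of RAB27, stood at 23.2, 36.3 and 20.8 FPKM in Kashmiri and at 4.88, 3.68 and 2.58 in Jersey, in an entry joined with CCDC89. SYTL3, of the same family, stood at 24.1, 51.5 and 9.81 FPKM in Kashmiri and at 10.9, 4.58 and 10.8 in Jersey. Its highest value was at D90 in Kashmiri, like the sums of T and NK cell markers and of B cell markers. Of the effectors of RAB27 that reached 1 FPKM, SYTL2 was past 4-fold lower in Jersey on all 3 days and SYTL3 at D90. Of the effectors of RAB5, RAB7 and RAB11, only PIK3R4, a subunit of the lipid kinase complex that RAB5 recruits, was past 4-fold, at D250 (2.05, of 21 genes). The only effector of RAB3 of the 5 found that reached 1 FPKM was not past it on any day.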

How the data were processed

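Cells captured from milk on beads with an antibody against keratin 18 were sequenced as stranded mRNA libraries on an Illumina instrument. Trimming with Trimmomatic, spliced alignment to UMD3.1 by TopHat over Bowtie 2 and quantification by Cuffdiff were done by the authors. The deposited values are FPKM, 1 per gene, breed and day, pooled over the samples of a group, and the reads behind each value are unknown, so no interval was computed. Names were taken from 61264 entries, of which 25121 carried a name; joined names were split. Members and lists were chosen with earlier results of these data known. Log2 ratios used a pseudocount of 1 FPKM over names that reached 1 FPKM in either group, with a limit of 2 (4-fold), and single folds are plain ratios. Genes named were the ER and Golgi and the white cell members that reached 1 FPKM, other members past 4-fold in any comparison, the 5 highest members, and up to 5 genes per regulator list past 4-fold between the breeds. An item of the prenylation list is not reported here. Remaining members are given by their range, and other genes are markers, paralogues or were named after their values were seen. Gene neighbours came from a RefSeq table of another assembly, in which all 52 symbols were found, and no coordinates are given. Alternatives were a pseudocount of 0.1 FPKM, no filter on low FPKM, a limit of 1 (2-fold), rescaling to the upper quartile or to the sum of all names but the 6 milk protein genes, the sum of all entries of a name, and joined entries left out. The code was tested on simulated data. Tables were handled in pandas 2.3.3 with numpy 2.4.6 under Python 3.11.15 and drawn with matplotlib 3.10.9.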

Additional observations from a re-analysis of the deposited data

Results flagged for a closer look

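RAB38, of lysosome-related organelles, and RAB7B, of endosomes, went opposite ways in the breeds between D15 and D250. For RAB38 the log2 ratio of D250 over D15 was 2.65 in Kashmiri and -1.37 in Jersey. For RAB7B it was 2.07 in Kashmiri and -1.30 in Jersey. Each breed and day had only 1 value, so the difference was not tested.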

How the results depend on the processing

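The difference between the median log2 ratios of the white cell list and of the ER and Golgi list kept its sign and stayed within 0.58 of its value in all 9 comparisons under every alternative. That margin was wider than the difference itself for D250 over D90 (-0.21 in Kashmiri, 0.34 in Jersey) and for D250 over D15 in Kashmiri (0.20). No alternative took a gene out of these 2 lists, but without the filter members under 1 FPKM also entered the medians. Leaving out joined entries took RAB11B, whose only entry is joined, out of the recycling list. Counts of members past 4-fold depended on the limit. At a limit of 2-fold, 19 members (8 at 4-fold), 11 (0) and 16 (3) passed in Kashmiri for D90 over D15, D250 over D90 and D250 over D15, 16 (6), 14 (4) and 20 (5) in Jersey, and 14 (5), 17 (6) and 16 (6) between the breeds at D15, D90 and D250. A pseudocount of 0.1 FPKM gave 5 members for D250 over D15 in Kashmiri and 12 between the breeds at D90. Rescaling to the sum of all names without milk protein genes gave 5 for D250 over D90 in Kashmiri, 7 for D250 over D15 in Kashmiri and 3 for D250 over D15 in Jersey. This rescaling moved the median of all names most at D250, where Jersey over Kashmiri went from -0.09 to -0.92, against -0.57 with the upper quartile, and for D250 over D15 in Kashmiri, from -0.05 to 0.79. None of the 143 member ratios past 2-fold turned its sign under either rescaling. Some smaller ones did, among them, of the ER and Golgi list between the breeds, RAB1B at D15, RAB18 and RAB2B at D90 and RAB1A, RAB1B, RAB2A and RAB2B at D250. Of the 12 members higher in Jersey on all days, 9 stayed so under both rescalings, and of the 20 lower, 15 did. No paired analysis was possible because the values are 1 per group, and for the same reason no replicate could be left out.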

Other observations

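Of the 46 members that reached 1 FPKM, 12 were within 2-fold in all 9 comparisons on the scale with the pseudocount. As plain ratios some of these 12 went further, such as RAB30, near 1 FPKM, at 6.44-fold for D250 over D15 in Kashmiri. RABAC1, a membrane protein that binds prenylated RAB proteins, was abundant at D15, and its FPKM was lower on each later day in both breeds, at 625, 186 and 146 in Kashmiri and 566, 225 and 99.9 in Jersey, although D250 over D90 in Kashmiri turned to higher when values were rescaled to the sum without milk proteins. RABIF, which stabilises some RAB proteins, had the same order of days, at 56.0, 14.5 and 5.98 FPKM in Kashmiri and 49.9, 12.3 and 8.23 in Jersey. Both genes were chosen after their values were seen. The second entry of RAB1A, joined with CEP68, stood at 23.8, 22.4 and 35.4 FPKM in Kashmiri and at 15.5, 34.7 and 60.9 in Jersey, lowest at D90 in Kashmiri and higher on each later day in Jersey like the entry used.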
